A study of Saccharomyces cerevisiae with 24 samples.

Results

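The 10 genes described here encode the enzymes of lower glycolysis in budding yeast (Saccharomyces cerevisiae), from triose phosphate to pyruvate. They were chosen by gene symbol, and all 10 were found among the 6612 transcripts of the expression table and passed the filter on low values. RNA-seq was performed on 24 libraries, with 2 replicates for each of 3 strains in each of 4 growth conditions. The strains carried Sfp1, a transcription factor of ribosomal genes, in which 2 lysines were both changed to glutamine (K655/657Q, with K655Q and K657Q), both changed to arginine (K655/657R, with K655R and K657R) or left unchanged (WT). Acetylation removes the charge of a lysine side chain, so the uncharged glutamine stands in for the acetylated form, and the charged arginine for a lysine without acetyl groups. In all 3 strains SFP1 was tagged with MYC and marked with KanMX. The labels give all of them the same parental line (LPY) and the marker alleles can1-100, ura3-1, trp1-1, his3-11,15 and ade2-1 and a mutant allele of LEU2, a set that in the strain list of the study belongs to another parent than that of the tagged LPY strains, so the background is uncertain. Cells were grown in YPD with 2% glucose, in 2% raffinose (the 0 min point), and for 15 or 30 min after glucose had been added back to 2%. Replicates are known by number only, so the p-values measure the spread between these libraries, which may be technical.

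Lower glycolysis converts triose phosphates into pyruvate. Triose phosphate isomerase (TPI1) interconverts both triose phosphates, glyceraldehyde-3-phosphate dehydrogenase (TDH1, TDH2 and TDH3) yields NADH, and phosphoglycerate kinase (PGK1) yields ATP. Phosphoglycerate mutase (GPM1) and enolase (ENO1 and ENO2) lead to phosphoenolpyruvate, from which pyruvate kinase (CDC19 and PYK2) makes pyruvate and a further ATP. The steps up to enolase also run in reverse during gluconeogenesis, whereas pyruvate kinase works only in the direction of glycolysis. Raffinose is a trisaccharide that yeast cleaves outside the cell with invertase before it takes up the released fructose. The activity of Cdc19 depends on fructose bisphosphate, and Pyk2 is the pyruvate kinase that does not need it.

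All 10 genes have 1 coding exon and no intron in the R64 reference. TPI1 (YDR050C) lies on chromosome IV from 555726 to 556472, PGK1 (YCR012W) on chromosome III from 137746 to 138996, and GPM1 (YKL152C) on chromosome XI from 163642 to 164385. The dehydrogenase genes are TDH1 (YJL052W) on chromosome X from 338271 to 339269, TDH2 (YJR009C) on chromosome X from 453683 to 454681, and TDH3 (YGR192C) on chromosome VII from 882812 to 883810. The enolase genes are ENO1 (YGR254W) on chromosome VII from 1000927 to 1002240 and ENO2 (YHR174W) on chromosome VIII from 451327 to 452640. The pyruvate kinase genes are CDC19 (YAL038W) on chromosome I from 71786 to 73288 and PYK2 (YOR347C) on chromosome XV from 984942 to 986462.

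The isozymes can be told apart by RNA-seq only where their coding sequences differ. TDH2 and TDH3 share 95.8% of their 999 coding bases, TDH1 shares 90.2% with TDH2 and 88.9% with TDH3, and ENO1 and ENO2 share 94.8% of 1314. CDC19 and PYK2 share 67.1% of 1521 aligned positions. Of the 31-base words in the coding sequence, 50.6% in TDH2, 43.2% in TDH3, 26.3% in TDH1 and 38.8% in each enolase gene also occur in another protein-coding gene of the RefSeq annotation. No such word of TPI1, PGK1, GPM1, CDC19 or PYK2 does. The search did not cover all 6612 transcripts of the expression table, so words shared with the others, on either strand, are not counted here. Reads made only of shared words are divided between the copies by the quantifier's estimate, so the levels of TDH1, TDH2, TDH3, ENO1 and ENO2 are less certain one by one than as sums. Coding bases 61 to 150 show how the copies differ, from the RefSeq genome of build R64, with the 24 positions that differ among the 3 dehydrogenase genes in capitals.

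TDH1 (chrX:338331-338420, + strand): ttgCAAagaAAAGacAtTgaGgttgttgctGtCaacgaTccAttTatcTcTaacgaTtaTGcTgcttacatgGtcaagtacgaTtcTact

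TDH2 (chrX:454532-454621, - strand): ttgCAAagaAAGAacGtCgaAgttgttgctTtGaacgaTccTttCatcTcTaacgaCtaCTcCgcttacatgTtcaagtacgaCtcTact

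TDH3 (chrVII:883661-883750, - strand): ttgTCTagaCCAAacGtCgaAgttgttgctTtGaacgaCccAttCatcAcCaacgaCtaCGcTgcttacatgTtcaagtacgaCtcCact

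In the same stretch the enolase genes differ at 3 positions, again in capitals, and a read from it could often fit either gene.

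ENO1 (chrVII:1000987-1001076, + strand): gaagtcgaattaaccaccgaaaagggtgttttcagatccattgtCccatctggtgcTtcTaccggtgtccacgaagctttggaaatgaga

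ENO2 (chrVIII:451387-451476, + strand): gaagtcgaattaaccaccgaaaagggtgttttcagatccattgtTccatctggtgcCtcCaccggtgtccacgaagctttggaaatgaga

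Levels are given as TPM, transcript numbers corrected for gene length and scaled so that each library sums to the same total. They can be compared between genes, and the number of reads of a library is unknown. Between 6452 and 6486 transcripts were above 0 in the 23 libraries used, with a median of 11.6 to 17.8 TPM. Replicate 2 of K655/657R at 30 min stood apart and was left out of the tests. In it CDC19 was at 559 TPM and PGK1 at 880.4 TPM, whereas replicate 1 had 3298 TPM and 1828 TPM. At 30 min K655/657R is therefore 1 library without a test. SFP1 itself was measured in every group, with means of 10.8 to 21.3 scaled TPM, which does not check the substitutions. Genes whose symbols begin with RPL or RPS, the ribosomal proteins, held 25.5% to 30.5% of all TPM in YPD, 21.5% to 23.2% in raffinose, 29.5% to 34.2% at 15 min and 30.98% to 36.7% at 30 min. At 30 min K655/657Q lay below the other strains in this share, with 30.98% in each K655/657Q library, 36.7% in the K655/657R library and 35.4% and 36.7% in WT. Since TPM are shares of a library, a smaller share and less RNA per cell cannot be told apart, and neither can fewer expressing cells. The part of the ribosomal share in the results below was not tested.

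Together the 10 genes held 6.17% of all TPM in each K655/657Q library in YPD, 8.59% and 9.04% in K655/657R and 9.22% and 8.83% in WT. In raffinose their share was 4.40% to 5.14% in all 6 libraries, and at 15 min it was 3.58% to 4.36%. At 30 min it was 4.69% and 4.85% in K655/657Q, 3.25% in the K655/657R library and 3.55% and 3.52% in WT. TDH3 was the most abundant member and stood 7th of all transcripts by mean TPM, ENO2 stood 13th, and PYK2 stood 2500th. Between the lowest and highest of the 23 libraries, TDH1 differed 139.8-fold, ENO1 30.0-fold and PYK2 13.8-fold. The remaining members differed between 2.45-fold (TDH3) and 4.28-fold (GPM1).

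In WT cells in YPD the order of the levels ran from TDH3 (32133 and 30212 TPM) through ENO2 (13475 and 13093 TPM), GPM1 (9579 and 9169 TPM) and TPI1 (8047 and 7953 TPM) to TDH2 (7139 and 6665 TPM). PGK1 (6666 and 6477 TPM), CDC19 (6317 and 6182 TPM), ENO1 (5358 and 5250.5 TPM) and TDH1 (3483 and 3295 TPM) followed, and PYK2 was last (50.4 and 46.3 TPM). The replicates of TDH2 and PGK1 overlapped, and those of all other neighbours in this order did not. At 30 min in WT the order was different, with CDC19 (3614 and 3746 TPM) behind only TDH3 (14425 and 14153 TPM) and ENO2 (7750.0 and 7319 TPM), and with ENO1 (222 and 237 TPM), TDH1 (37.8 and 43.0 TPM) and PYK2 (5.03 and 5.32 TPM) as the last 3 members. TPI1 (2761 and 2868 TPM) and GPM1 (2686 and 2796 TPM) overlapped at that time.

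**Figure D1:**
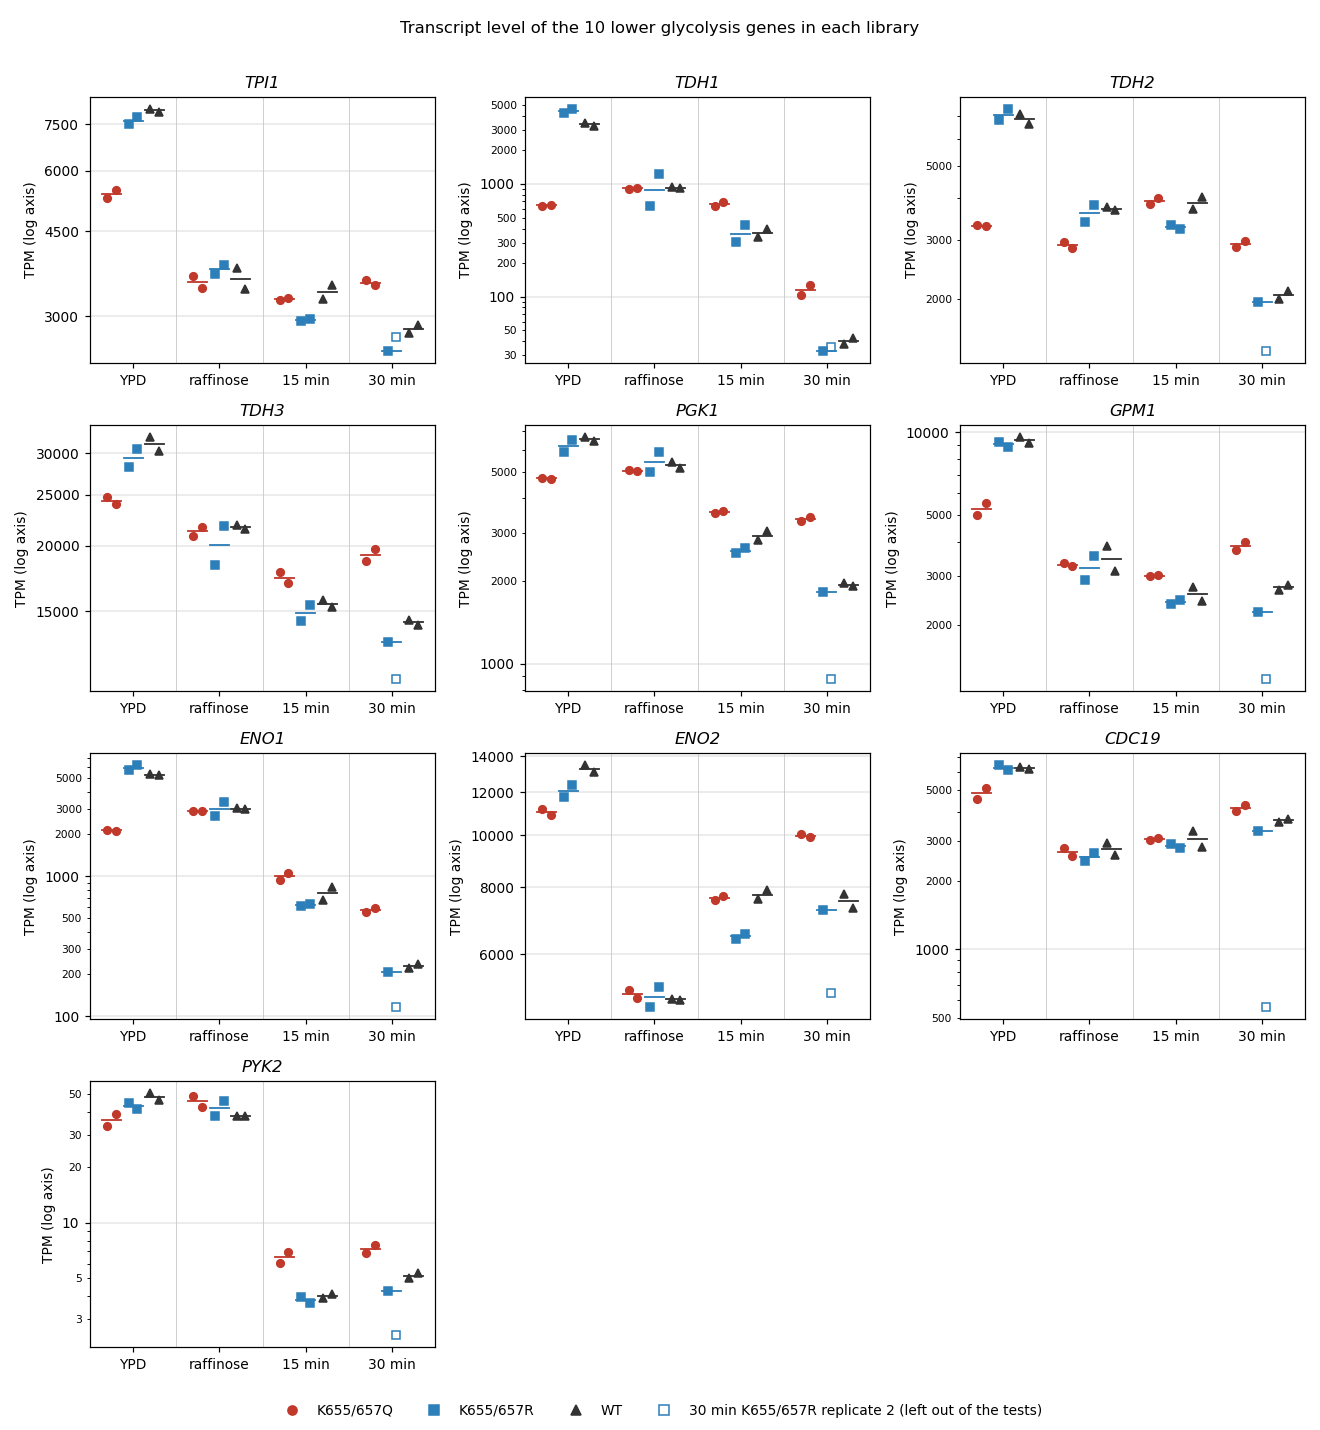
TPM as deposited (log axis, a separate range in each panel) of the 10 genes in YPD, raffinose and 15 and 30 min after glucose, with 1 point per library, a bar at the geometric mean of a group and an open square for the library that was left out. TDH1 and ENO1 are at their lowest at 30 min, PYK2 is low at 15 and 30 min, and the K655/657Q libraries in YPD lie below the other strains in every panel.

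Growth in raffinose was first compared with growth in YPD within each strain. In K655/657Q 4 of the 10 genes fell, in K655/657R 9 fell, and in WT all 10 fell. Fold changes were computed after each library had been divided by a size factor, as log2 of scaled TPM plus 1, and calls needed a change of at least 1.5-fold with an adjusted p below 0.05. Of all 6357 genes tested, 9.11% were called down in K655/657Q, 16.9% in K655/657R and 18.5% in WT. The log2 fold changes of the 10 genes had a median of -0.40 in K655/657Q, -1.44 in K655/657R and -1.44 in WT, beside medians over all genes of 0.00 in K655/657Q, 0.02 in K655/657R and 0.03 in WT.

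The dehydrogenase gene TDH1 showed the widest spread between strains. In raffinose its level was 901 and 929 TPM in K655/657Q, 643 and 1228 TPM in K655/657R and 939.6 and 918 TPM in WT. In YPD it was 639.9 and 651 TPM in K655/657Q, 4288 and 4601 TPM in K655/657R and 3483 and 3295 TPM in WT. Both raffinose libraries were below both YPD libraries in K655/657R and WT, and above them in K655/657Q. The log2 fold change was 0.29 in K655/657Q (adjusted p = 0.29), whereas it was -2.76 in K655/657R and -2.28 in WT (SE 0.22, adjusted p = 2e-07). TDH1 had the largest SE of the 10 genes, 0.22 against 0.056 to 0.11, and its replicates in raffinose differed most in K655/657R.

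ENO2, the major enolase gene in glucose, fell in all 3 strains. It was at 5137 and 4967 TPM in raffinose and at 11177 and 10886 TPM in YPD in K655/657Q, and at 4783 and 5222 TPM in raffinose and 11759 and 12416 TPM in YPD in K655/657R. In WT it was at 4955 and 4933 TPM in raffinose and 13475 and 13093 TPM in YPD, a 3.58-fold lower level after scaling (log2 fold change -1.84, adjusted p = 4.7e-13). The log2 fold change was -1.34 in K655/657Q and -1.72 in K655/657R. ENO1 was at 3062 and 3013 TPM in raffinose and 5358 and 5250.5 TPM in YPD in WT and fell there (-1.22). In K655/657Q it was at 2924 and 2932 TPM in raffinose and 2150.3 and 2113 TPM in YPD, a log2 fold change of 0.25 that was not called (adjusted p = 0.065).

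Among the members with 1 gene, GPM1 and TPI1 fell in every strain, by a log2 fold change of -0.88 and -0.81 in K655/657Q, -1.93 and -1.47 in K655/657R and -1.84 and -1.57 in WT. PGK1 fell in K655/657R (-0.63) and WT (-0.73), and its value in K655/657Q was -0.11 (adjusted p = 0.23). The call in K655/657R was lost without replicate 2 in YPD (-0.55) or replicate 1 in raffinose (-0.50), both under the fold change threshold. The pyruvate kinase gene CDC19 fell in K655/657Q (-1.06), K655/657R (-1.74) and WT (-1.59). It was at 2799 and 2563 TPM in raffinose and 4587 and 5094 TPM in YPD in K655/657Q, and at 2940.2 and 2609 TPM in raffinose and 6317 and 6182 TPM in YPD in WT. PYK2 fell in WT (-0.75) and was not called elsewhere, with -0.47 in K655/657R and 0.13 in K655/657Q. TDH3 and TDH2 fell in K655/657R (-0.996 and -1.42) and WT (-0.93 and -1.30) and had values of -0.40 and -0.40 in K655/657Q, under the fold change threshold. TDH3 was at 20854 and 21748 TPM in raffinose and 24725 and 23954 TPM in YPD in K655/657Q, and at 21934 and 21479.6 TPM in raffinose and 32133 and 30212 TPM in YPD in WT, so that the raffinose levels of these strains overlapped and the YPD levels did not.

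The number of members called depended on the scaling. With TPM as deposited, the median of all genes moved to 0.40 in WT, 82.4% of all calls were up instead of 50.8%, and 7 members were called, without TDH3, PGK1 and PYK2. The share of all calls that were up was then 80.9% instead of 55.7% in K655/657Q and 84.9% instead of 50.8% in K655/657R. After scaling to ACT1, 5 members were called in WT, namely TPI1, TDH1, GPM1, ENO2 and CDC19, but ACT1 itself was at 1622 ± 28.1 scaled TPM in raffinose and 2679 ± 45.1 in YPD (SD, n = 2 each). Relative to the median of all genes, the members' fold changes moved by at most 0.046 with TPM as deposited and 0.11 with ACT1 over all comparisons. A scaling shifts nearly all genes of a library alike, so these small values follow from the method and do not show that the calls are stable.

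Adding glucose back to raffinose cultures was followed at 15 min. ENO2 rose in K655/657Q and WT, while ENO1 and PYK2 fell in all 3 strains. In K655/657Q 1 member was called up and 2 down, beside 19.1% of all genes up and 21.8% down. In K655/657R none was called up and 4 down, beside 22.4% up and 24.5% down, and in WT 1 was called up and 4 down, beside 21.7% up and 22.9% down. With 10 members, counts of 0 to 4 lie near these shares of all genes, and they set the members apart from other genes in no strain. Over the 3 strains, 35.6% to 37.9% of all calls were up with TPM as deposited instead of 46.6% to 48.6%.

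PYK2 was at 6.07 and 6.93 TPM at 15 min and 48.9 and 42.6 TPM in raffinose in K655/657Q. It was at 3.95 and 3.66 TPM at 15 min and 38.2 and 45.8 TPM in raffinose in K655/657R, and at 3.93 and 4.12 TPM at 15 min and 37.8 and 38.0 TPM in raffinose in WT. The groups did not overlap in any strain, and the log2 fold change was -2.53 in K655/657Q, -2.99 in K655/657R and -2.80 in WT (adjusted p = 1.1e-12 in WT). At these low levels the added 1 makes the fold change smaller than that of the TPM themselves. ENO1 was at 938 and 1059 TPM at 15 min and 2924 and 2932 TPM in raffinose in K655/657Q, a log2 fold change of -1.44. In K655/657R it was at 616 and 628 TPM at 15 min and 2716 and 3390.5 TPM in raffinose (-2.10), and in WT at 677 and 840.3 TPM at 15 min and 3062 and 3013 TPM in raffinose (-1.85). ENO2 moved the other way, to 7557 and 7712 TPM at 15 min in K655/657Q, 6410.3 and 6555 TPM in K655/657R and 7586 and 7916 TPM in WT. Its log2 fold change against raffinose was 0.70 in K655/657Q and 0.80 in WT, and 0.56 in K655/657R fell just short of the fold change threshold (adjusted p = 1.8e-07). With both enolase genes summed, the log2 fold change was 0.22 in K655/657Q, 0.01 in K655/657R and 0.25 in WT, and no sum was called.

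TDH1 fell at 15 min in K655/657R (-1.11) and WT (-1.18), and had a log2 fold change of -0.37 in K655/657Q (95% interval -0.84 to 0.11). PGK1 also fell in K655/657R (-0.89) and WT (-0.70), with -0.39 in K655/657Q. The remaining 5 members, TPI1, TDH2, TDH3, GPM1 and CDC19, were called in no strain, with log2 fold changes between -0.33 (TDH3 in WT) and 0.54 (TDH2 in K655/657Q). The difference of the 15 min response between mutant and WT was called for none of the 10 genes in either mutant, beside 2.96% of all genes for K655/657Q and 0.283% for K655/657R. At an unadjusted p under 0.05, 4 members differed for K655/657Q and 2 for K655/657R, beside 20.4% and 19.5% of all genes (limma). For TDH1 the difference between K655/657Q and WT was 0.82 (95% interval 0.15 to 1.49), so the data do not show that the responses were alike.

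At 30 min ENO2 and CDC19 rose above raffinose, and TDH1, ENO1 and PYK2 fell below it, in both K655/657Q and WT. In K655/657Q 2 members were called up and 3 down, beside 17.0% and 21.3% of all genes, and in WT 2 were called up and 5 down, beside 20.1% and 22.3%. In WT 27.9% of all calls were up with TPM as deposited instead of 47.4%, and 1 member was called up and 6 down. TDH1 was at 104 and 126 TPM in K655/657Q, 32.9 TPM in the K655/657R library and 37.8 and 43.0 TPM in WT. Its log2 fold change against raffinose was -2.98 in K655/657Q and -4.23 in WT, an 18.8-fold lower level (adjusted p = 9.8e-11). ENO1 was at 558 and 597 TPM in K655/657Q, 207 TPM in the K655/657R library and 222 and 237 TPM in WT, with log2 fold changes of -2.33 in K655/657Q and -3.46 in WT. In each strain with 2 libraries, all values of TDH1 and ENO1 at 30 min lay below all values at 15 min.

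PYK2 was again low at 30 min, at 6.87 and 7.56 TPM in K655/657Q, 4.28 TPM in the K655/657R library and 5.03 and 5.32 TPM in WT (-2.48 and -2.41 against raffinose in K655/657Q and WT). ENO2 was at 10040.3 and 9907 TPM in K655/657Q and 7750.0 and 7319 TPM in WT and rose by 0.99 and 0.87 on the log2 scale. CDC19, the pyruvate kinase gene of fermenting cells, was at 4043 and 4293 TPM in K655/657Q and 3614 and 3746 TPM in WT and rose by 0.64 and 0.67, close to the fold change threshold. Its call was lost in K655/657Q without replicate 2 at 30 min (0.56) and in WT without replicate 2 in raffinose (0.58). In WT, TDH2 (-0.60) and PGK1 (-1.18) fell as well, TDH2 only just, since its call was lost without replicate 1 in raffinose (-0.58) or at 30 min (-0.53). TPI1, GPM1 and TDH3 were called in neither strain.

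Between 15 and 30 min, 2 members fell in K655/657Q and 3 in WT, beside 6.40% of all genes called down in K655/657Q and 5.79% in WT. TDH1 fell by 2.61 in K655/657Q and 3.05 in WT on the log2 scale, the largest change of the 10 genes in this interval in each strain, and ENO1 fell by 0.89 and 1.61. TDH2 fell in WT (-0.81), with -0.53 in K655/657Q. Unlike ENO1, PYK2 was not lower at 30 min than at 15 min, with log2 fold changes of 0.04 in K655/657Q and 0.39 in WT.

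Compared with steady growth in YPD, 6 of the 10 genes were called down at 30 min in K655/657Q and all 10 in WT, beside 19.5% of all genes in K655/657Q and 25.5% in WT. This was not particular to lower glycolysis, since of 7 upper glycolysis genes 6 were called down in K655/657Q and 7 in WT. In K655/657Q, PYK2 (-2.36), ENO1 (-2.09), TDH1 (-2.68), TPI1 (-0.81), PGK1 (-0.70) and GPM1 (-0.65) fell, the call of GPM1 being lost without replicate 1 at 30 min (-0.57). In WT the log2 fold changes ran from -0.92 (CDC19) and -0.97 (ENO2) to -3.16 (PYK2), -4.68 (ENO1) and -6.51 (TDH1). Under ACT1 scaling, 3 members were called in K655/657Q and 7 in WT, and the value of CDC19 in WT turned to 0.05 (adjusted p = 0.71).

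**Figure D2:**
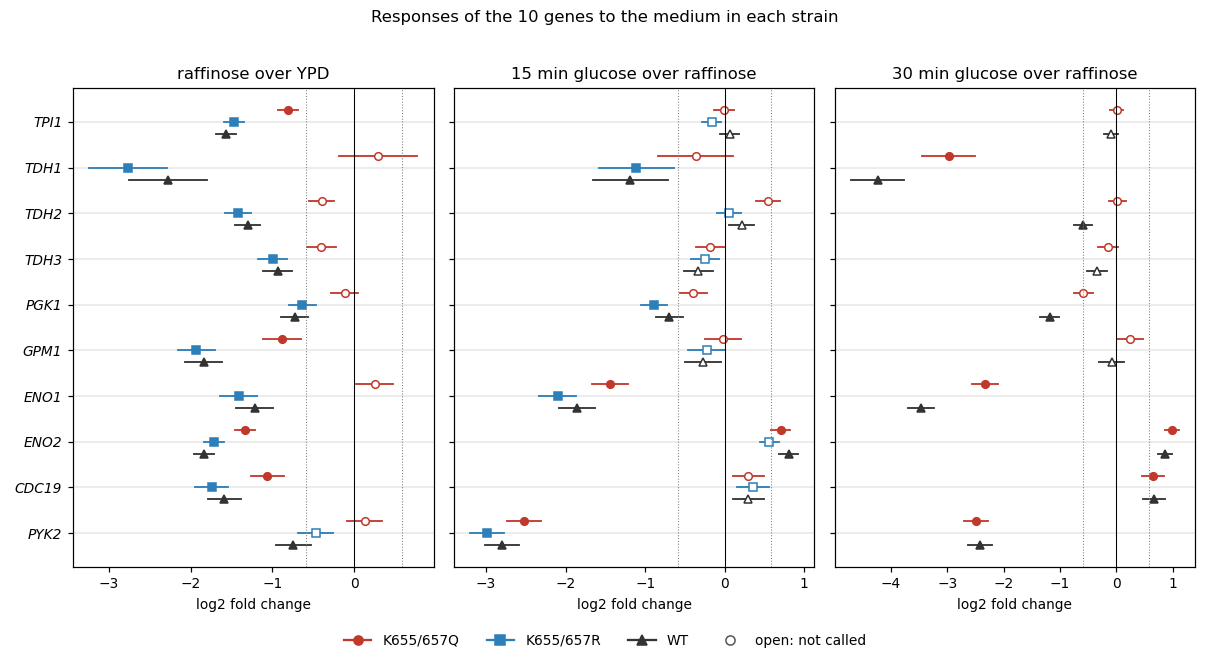
Log2 fold change (x axis, a separate range in each panel) with its 95% confidence interval for the 10 genes in raffinose over YPD, 15 min over raffinose and 30 min over raffinose, by strain. Filled symbols were called, open symbols were not, and dotted lines mark a fold change of 1.5. The raffinose values of K655/657Q lie to the right of those of the other strains for every gene, and ENO1 and ENO2 part after glucose is added.

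The comparison of K655/657Q with WT in each medium addresses the effect of the acetylation mimic. In YPD 7 of the 10 genes were lower in K655/657Q and none was higher, beside 7.06% of all genes called down, with a median log2 fold change of -0.71 beside 0.01 over all genes. The largest differences were in the minor dehydrogenase gene TDH1 (-2.58, SE 0.22, adjusted p = 2.7e-07), in ENO1 (-1.50, adjusted p = 3.9e-08) and in TDH2 (-1.25, adjusted p = 5.5e-09). ENO1 was at 2150.3 and 2113 TPM in K655/657Q, against 5358 and 5250.5 TPM in WT, and TDH2 at 3326 and 3293 TPM in K655/657Q, against 7139 and 6665 TPM in WT. TDH1 was 5.97-fold lower in K655/657Q, and the libraries of the strains did not overlap for any of these genes.

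GPM1 was at 5015 and 5536 TPM in K655/657Q and 9579 and 9169 TPM in WT (-1.02), TPI1 at 5273 and 5462 TPM in K655/657Q and 8047 and 7953 TPM in WT (-0.76), and PGK1 at 4749.5 and 4699 TPM in K655/657Q and 6666 and 6477 TPM in WT (-0.66). PYK2 was at 33.5 and 38.8 TPM in K655/657Q and 50.4 and 46.3 TPM in WT (-0.60), and its call was lost without replicate 1 of WT (-0.53) or of K655/657Q (-0.51). The most abundant isozyme of each family was also lower than in WT, but by less than the fold change threshold. TDH3 was at 24725 and 23954 TPM in K655/657Q and 32133 and 30212 TPM in WT (-0.54, adjusted p = 7.8e-05), ENO2 at 11177 and 10886 TPM in K655/657Q and 13475 and 13093 TPM in WT (-0.46, adjusted p = 9e-06), and CDC19 at 4587 and 5094 TPM in K655/657Q and 6317 and 6182 TPM in WT (-0.56, adjusted p = 0.00017). Summed over isozymes, the dehydrogenase genes (-0.74) and the enolase genes (-0.69) were called down, and the pyruvate kinase genes (-0.56) were not. With TPM as deposited 4 members were called, TDH1, TDH2, GPM1 and ENO1, while 73.3% of all calls were up instead of 48.6%, and after ACT1 scaling 3 were called, TDH1, TDH2 and ENO1, with 92.6% of all calls up. ACT1 was at 1968 ± 19.8 scaled TPM in K655/657Q and 2679 ± 45.1 in WT in YPD (SD, n = 2 each).

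In raffinose none of the 10 genes was called between K655/657Q and WT, beside 3.57% of all genes. At an unadjusted p under 0.05, 2 members and 34.2% of all genes differed (limma), and the 10 log2 fold changes lay between -0.34 (TDH2, adjusted p = 0.0042) and 0.28 (PYK2, adjusted p = 0.063). No 95% interval of the 10 reached a fold change of 1.5. TDH1 was at 901 and 929 TPM in K655/657Q and 939.6 and 918 TPM in WT, a log2 fold change of -0.01 with an interval of -0.48 to 0.47.

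After glucose was added, TDH1 and later ENO1 were higher in K655/657Q than in WT. At 15 min TDH1 was called up, with 631 and 688 TPM in K655/657Q and 336 and 401 TPM in WT (0.81, adjusted p = 0.016), beside 2.27% of all genes. This call was lost without replicate 1 of WT (0.73, adjusted p = 0.096) or replicate 2 of K655/657Q (0.73, adjusted p = 0.10), and with all 24 libraries in the fit. PYK2 at 6.07 and 6.93 TPM in K655/657Q and 3.93 and 4.12 TPM in WT was just under the fold change threshold (0.55, adjusted p = 0.001). At 30 min TDH1 (1.25, adjusted p = 0.00093) and ENO1 (1.09, adjusted p = 4.9e-06) were called up, beside 1.10% of all genes. ENO1 was at 558 and 597 TPM in K655/657Q and 222 and 237 TPM in WT, and TDH1 at 104 and 126 TPM in K655/657Q and 37.8 and 43.0 TPM in WT, without overlap. PGK1 was at 3297 and 3406 TPM in K655/657Q and 1964 and 1921 TPM in WT (0.55, under the threshold), and was called with TPM as deposited (0.79, adjusted p = 3.8e-06). With TPM as deposited the median of all genes moved to 0.23 at 30 min and 84.4% of all calls were up instead of 28.2%, with TDH1 (1.48) and ENO1 (1.33) still called. The ribosomal protein share was lower in K655/657Q (30.98% in each library) than in WT (35.4% and 36.7%) at this time, and its part in these differences was not tested.

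The change of the K655/657Q effect between media was tested directly. Between YPD and raffinose the effect moved upward in 7 members, beside 10.7% of all genes, by 2.57 for TDH1, 1.46 for ENO1, 0.96 for GPM1, 0.90 for TDH2, 0.87 for PYK2, 0.76 for TPI1 and 0.61 for PGK1 on the log2 scale. The call of PGK1 was lost without replicate 2 of WT in raffinose (0.58), and only TDH1 and ENO1 were called under ACT1 scaling. Between YPD and 15 min the effect moved upward in 8 members, beside 10.2% of all genes, and between YPD and 30 min in 9, beside 8.98%, and both of these tests were added after the values had been seen. TDH1 moved by 3.39 and 3.83 in these tests, and CDC19, the member called in none of them, by 0.53 and 0.50. All of these tests share the YPD libraries of K655/657Q and WT. The response from raffinose to 30 min also differed between K655/657Q and WT, with 4 members less reduced in K655/657Q, beside 1.12% of all genes called up: TDH1 (1.26, adjusted p = 0.021), ENO1 (1.13, adjusted p = 0.00023), TDH2 (0.61) and PGK1 (0.60). With TPM as deposited the median of all genes moved to 0.23 and 87.1% of all calls were up instead of 27.6%, and the values of these 4 were 1.51, 1.38, 0.87 and 0.85, all called. With all 24 libraries in the fit, 1 of the 4 was still called, and 1 to 4 when single libraries were left out, TDH1 losing its call in 6 of 8 such fits, PGK1 in 3 (0.54 to 0.58) and TDH2 in 2 (0.54 and 0.55).

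**Figure D3:**
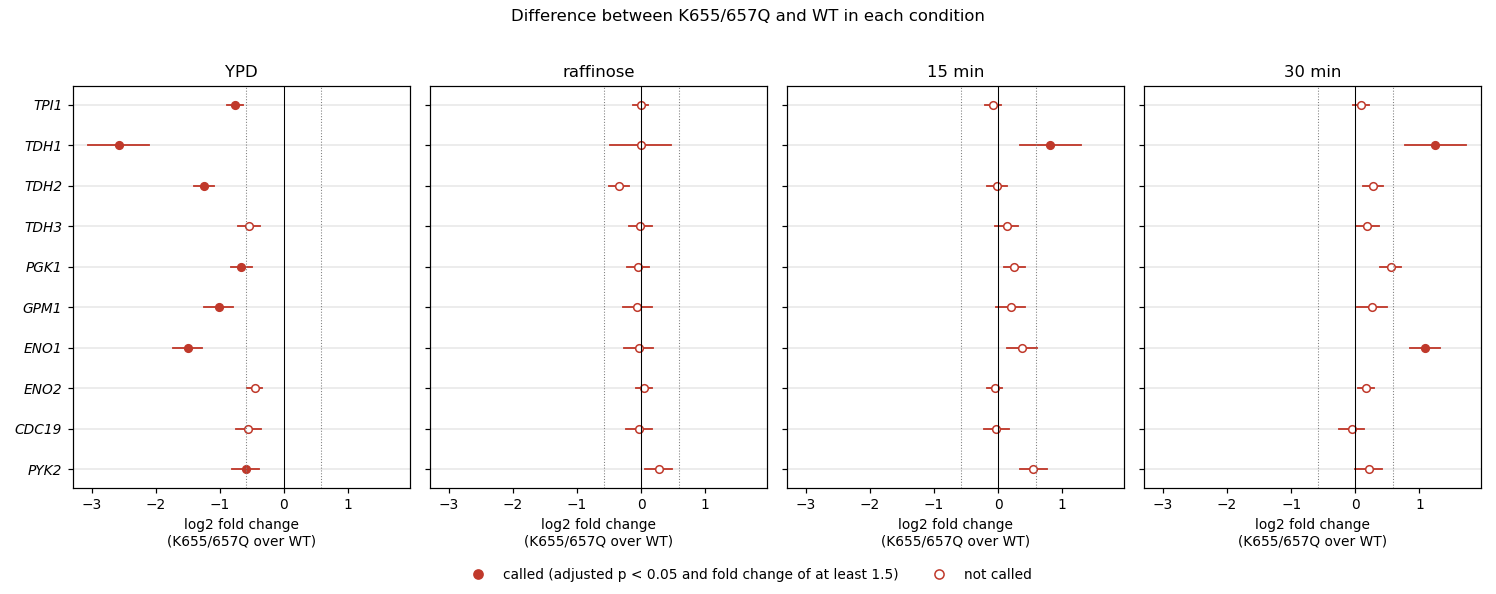
Log2 fold change of K655/657Q over WT (x axis, the same range in all panels) with its 95% confidence interval for the 10 genes in YPD, raffinose and 15 and 30 min after glucose. Filled points were called, open points were not, and dotted lines mark a fold change of 1.5; all 10 points lie below 0 in YPD, and TDH1 and ENO1 lie above the upper line at 30 min.

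K655/657R was compared with WT in the same way. None of the 10 genes was called in YPD, raffinose or at 15 min, beside 1.64%, 0.173% and 0% of all genes. At an unadjusted p under 0.05, 1 member differed in YPD, 0 in raffinose and 3 at 15 min, and 26.2%, 15.9% and 15.7% of all genes did (limma). The fold change furthest from 0 was that of TDH1 in YPD, with 4288 and 4601 TPM in K655/657R and 3483 and 3295 TPM in WT (0.46, 95% interval -0.02 to 0.93, adjusted p = 0.2). Both K655/657R libraries were above both WT libraries in that case. For the other 9 members the log2 fold changes in these 3 conditions lay between -0.21 (ENO1 at 15 min) and 0.23 (ENO1 in YPD). Of the intervals in these 3 conditions, only that of TDH1 in YPD reached a fold change of 1.5, and all of them allow smaller differences.

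The balance of the isozymes was followed as ratios of TPM within a library, which do not depend on the scaling. Of 20 tests in this family, 11 passed an adjusted p of 0.05 (exact stratified permutation test, two-sided, Benjamini-Hochberg over the 20 tests). The smallest p that these tests allow is 0.00926 between conditions and 0.00154 between strains. Conditions were permuted within strains, and strains within conditions.

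TDH1 relative to TDH3 was lowest at 30 min, at 0.557% and 0.640% in K655/657Q, 0.251% in the K655/657R library and 0.262% and 0.304% in WT. In raffinose it was 4.32% and 4.27% in K655/657Q, 3.49% and 5.63% in K655/657R and 4.28% and 4.28% in WT. The ratio was lower than in raffinose both at 30 min (log2 difference -3.64, adjusted p = 0.019) and at 15 min (-0.63, adjusted p = 0.019). The strains were not alike at 15 min, with differences of -0.18 in K655/657Q, -0.87 in K655/657R and -0.86 in WT. In YPD the ratio was 2.59% and 2.72% in K655/657Q, 15.2% and 15.0% in K655/657R and 10.8% and 10.9% in WT. A difference between raffinose and YPD over all strains was not detected (adjusted p = 0.14), and the ratio differed by 0.70 in K655/657Q, -1.77 in K655/657R and -1.35 in WT. No difference between K655/657Q and WT was detected over all conditions either (adjusted p = 0.83), with differences of -2.04 in YPD, 0.01 in raffinose, 0.68 at 15 min and 1.08 at 30 min. The change of the ratio's difference between conditions was not tested.

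TDH2 relative to TDH3 varied less, between 14.2% and 13.1% in K655/657Q in raffinose and 23.6% and 26.4% in WT at 15 min. At 15 min it was higher than in raffinose by 0.52 on the log2 scale (adjusted p = 0.019). In K655/657Q it was lower than in WT over the 4 conditions (log2 difference -0.27, adjusted p = 0.039), from -0.70 in YPD to 0.08 at 30 min. This call was lost without either replicate of WT or replicate 2 of K655/657Q in raffinose, or without replicate 2 of WT or replicate 1 of K655/657Q at 15 min (adjusted p = 0.053 to 0.062). TDH3 held 71.7% to 87.6% of the TPM of the 3 dehydrogenase genes over the 23 libraries.

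ENO1 relative to ENO2 spanned a wide range. In raffinose ENO1 was at 56.9% and 59.0% of ENO2 in K655/657Q, 56.8% and 64.9% in K655/657R and 61.8% and 61.1% in WT. In YPD it was at 19.2% and 19.4% in K655/657Q, 48.5% and 49.9% in K655/657R and 39.8% and 40.1% in WT. At 15 min it was 12.4% and 13.7% in K655/657Q, 9.61% and 9.59% in K655/657R and 8.92% and 10.6% in WT. At 30 min it was 5.56% and 6.02% in K655/657Q, 2.84% in the K655/657R library and 2.86% and 3.24% in WT. The ratio was higher in raffinose than in YPD (log2 difference 0.84), and lower than in raffinose at 15 min (-2.49) and at 30 min (-4.02, adjusted p = 0.019 for each). No difference from WT was detected over all conditions in either mutant (adjusted p = 0.83 for K655/657Q and 0.65 for K655/657R), and in K655/657Q the difference had opposite signs in YPD (-1.05) and at 30 min (0.92). Both K655/657Q libraries lay below both WT libraries in YPD and above them at 30 min.

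PYK2 made up a small part of the pyruvate kinase transcripts in every library. Relative to CDC19 it was at 1.75% and 1.66% in K655/657Q, 1.57% and 1.74% in K655/657R and 1.29% and 1.46% in WT in raffinose. In YPD it was at 0.731% and 0.762% in K655/657Q, 0.693% and 0.684% in K655/657R and 0.798% and 0.7497% in WT. At 15 min it was 0.201% and 0.225% in K655/657Q, 0.136% and 0.131% in K655/657R and 0.119% and 0.146% in WT. The ratio was higher in raffinose than in YPD (log2 difference 1.09), and lower than in raffinose at 15 min (-3.34) and at 30 min (-3.42, adjusted p = 0.019 for each). In K655/657Q it was higher than in WT by 0.31 (adjusted p = 0.019), from -0.05 in YPD to 0.69 at 15 min. K655/657R and WT differed by 0.00 over the conditions (permutation test, adjusted p = 0.995), from -0.17 in YPD to 0.27 in raffinose. Both K655/657R libraries lay below both WT libraries in YPD and above them in raffinose.

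**Figure D4:**
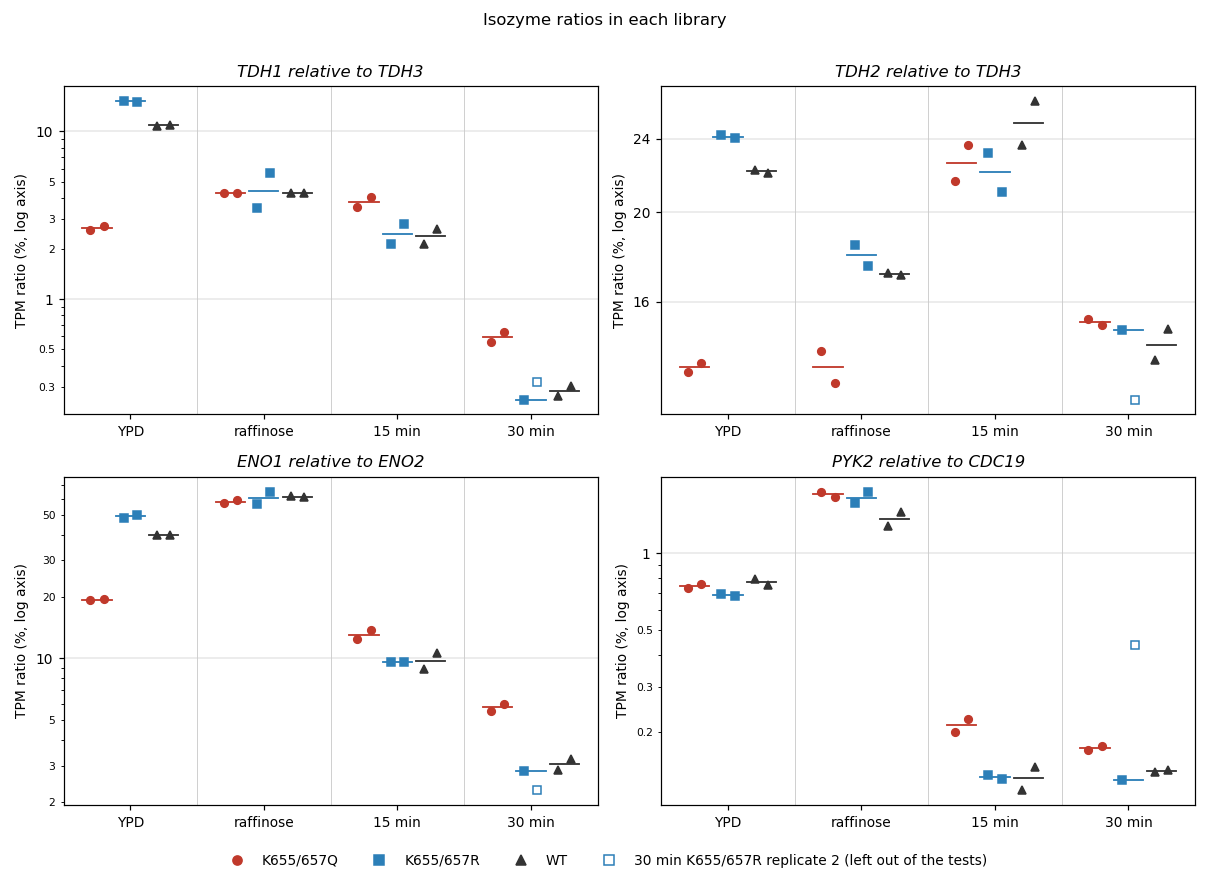
Ratio of TPM in percent (log axis, a separate range in each panel) of TDH1 and TDH2 to TDH3, ENO1 to ENO2 and PYK2 to CDC19 in each library, by condition and strain, with a bar at the geometric mean and an open square for the library left out. The ratio of ENO1 to ENO2 is highest in raffinose and lowest at 30 min, and the K655/657Q libraries in YPD lie below the other strains in the first 3 panels.

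The members fell into patterns that crossed the isozyme families. Over the means of the 11 groups with 2 libraries, ENO1 followed PGK1 (Pearson r = 0.98), TDH1 (0.95) and PYK2 (0.91), while its correlation with ENO2 was 0.24. ENO2 followed CDC19 (0.96), and CDC19 and PYK2 correlated at 0.35. TPI1, TDH3 and GPM1 correlated pairwise at 0.97 to 0.98. These values describe groups that share media and strains and carry no test.

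Among 4355 other genes with a mean of at least 10 TPM, the pattern most like that of TDH1 over the 11 groups was found in GTT1, a glutathione transferase gene (r = 0.99), in HOR7 (0.99) and in GRX1, a glutaredoxin gene (0.97). For TDH3 it was found in SPC3, a signal peptidase subunit gene, YDR169C-A and TAL1, the transaldolase gene (0.98 to 0.99), and for CDC19 in ENV10, MAP2 and VMA6, a subunit gene of the vacuolar ATPase (0.98 each). The genes most like PYK2 were COQ9 of coenzyme Q synthesis, NHX1, a sodium/proton exchanger gene, and GLC3, the glycogen branching enzyme gene (0.99 to 1.00). ENO1 was most similar to YCR013C (0.99), FUN14 (0.99) and YJL068C (0.99). YCR013C follows PGK1 (YCR012W) by its systematic name, and whether the coordinates of both overlap was not checked. Whether the counting used strand is not given in the sources used here, so the level of YCR013C is uncertain. A contribution of PGK1, which correlated with ENO1 at 0.98, to this match was not tested.

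Other genes of the pathway were counted from lists named by function. Of 7 upper glycolysis genes, 4 were lower in K655/657Q than in WT in YPD, namely the hexokinase genes HXK1 (-1.15) and HXK2 (-0.63), PGI1 (-0.63) and the aldolase gene FBA1 (-0.85), with a list median of -0.63 beside 0.01 over all genes and 7.06% of all genes called down. Of 6 genes of fermentation and gluconeogenesis, 1 was called down in K655/657Q against WT in YPD, beside the same 7.06%. ADH1 was there at 8863 ± 305 scaled TPM in K655/657Q and 17764 ± 819 in WT (SD, n = 2 each). In raffinose PCK1 (-1.02), FBP1 (-1.15) and ADH2 (-1.32) were lower in K655/657Q, beside 3.57% of all genes called in either direction. From YPD to raffinose in WT, 2 of the 7 fell, PGI1 (-1.08) and FBA1 (-1.51), and HXK1 rose (2.05), beside 18.5% of all genes called down and 19.0% called up, which is near the background. Between YPD and raffinose the K655/657Q effect moved upward in 4 of the 7, beside 10.7% of all genes. The list median of this change was 0.75, beside 0.81 for the 10 members. Of 6 genes of fermentation and gluconeogenesis, the gluconeogenic genes PCK1 (4.31), FBP1 (3.95) and the alcohol dehydrogenase gene ADH2 (5.10) rose in raffinose in WT and PDC1 (-0.69) and ADH1 (-1.01) fell. Of 4 sequence relatives tested, GPM2, a paralog of GPM1, was called down in K655/657Q against WT in YPD (-1.46), and ERR1 and ERR2, enolase-related genes near chromosome ends, had identical values and cannot be told apart here. Of 4 regulators of glycolytic genes, RAP1 (0.67), GCR2 (0.60) and TYE7 (1.41) rose in raffinose in WT, beside 19.0% of all genes, and GCR1 had -0.48 without a call. In K655/657R 2 of the 4 rose and in K655/657Q 1, beside 1108 and 729 of all 6357 genes.

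The bases before the start codons were searched on both strands for the cores of 3 binding sites. CTTCC, the core bound by Gcr1, occurred in the 300 bases before 6 of the 10 genes (TDH2, PGK1, GPM1, ENO2, CDC19 and PYK2), beside 45.4% of 6020 such windows in the genome. AGGGG, the stress response element bound by Msn2 and Msn4, occurred before 5 (TDH1, TDH3, PGK1, CDC19 and PYK2), beside 22.2%. ACACCCA, a core of Rap1 sites, occurred before none, beside 2.23%. Only this exact form was searched, so Rap1 sites of another form were not counted. In the next 300 bases, added after these counts had been seen, the 3 cores occurred before 9, 4 and 0 of the 10 genes, beside 49.5%, 22.5% and 2.97% of windows. A match describes letters and not a bound site, and the windows include the 5′ ends of the transcripts. The following 60 bases, from the RefSeq genome of build R64 and written in the direction of transcription, show the AGGGG matches of the 3 members with this core that fell at 15 min in WT and a CTTCC match of ENO2, which rose, in capitals.

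TDH1, 259 to 200 bases before the start codon (chrX:338012-338071, + strand): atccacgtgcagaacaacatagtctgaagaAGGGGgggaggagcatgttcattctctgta

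PGK1, 229 to 170 bases before (chrIII:137517-137576, + strand): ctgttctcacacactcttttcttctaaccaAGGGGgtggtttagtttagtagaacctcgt

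PYK2, 208 to 149 bases before (chrXV:986611-986670, - strand): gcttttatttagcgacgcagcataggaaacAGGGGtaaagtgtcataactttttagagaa

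ENO2, 200 to 141 bases before (chrVIII:451127-451186, + strand): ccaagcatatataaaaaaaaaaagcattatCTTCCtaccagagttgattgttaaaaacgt

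ENO1, which fell at 15 min as well, had no AGGGG in its first 300 bases, and TDH3 and CDC19, which had one, were not called at that time. CTTCC also occurred before PGK1 and PYK2, which fell in WT, and before TDH2, GPM1 and CDC19, which were not called. The printed stretches were picked by these calls, and a link between core and response was not tested.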

How the data were processed

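The deposited table held transcript levels as TPM (transcripts scaled to a fixed total per library), made by the authors from reads trimmed with fastp 0.23.2, checked with FastQC 0.11.9 and MultiQC 1.12 and quantified with kallisto 0.48.0 against R64-1-1 transcripts. The kit was directional and selected poly(A) RNA, and whether quantification used strand is not given in the sources used here. Read numbers cannot be recovered from TPM, so no counting interval was given and count models could not be run. Because TPM of a library sum to a fixed total, a few abundant genes move all others. TPM were therefore divided by median-of-ratios size factors (0.802 to 1.14), and log2(TPM + 1) of 6357 genes with a mean of at least 1 TPM over 23 libraries was fitted with limma 3.58.1 in R 4.3.3, with 1 mean per group, a mean-variance trend, 11 residual degrees of freedom and Benjamini-Hochberg adjustment over all genes. A fold change on this scale understates that of low genes. Calls needed a change of at least 1.5-fold with an adjusted p below 0.05, as in the study. In data simulated for K655/657Q against WT in YPD, 182 of 200 changed genes were called (38 of 50 changed by 0.7 and 50 of 50 changed by 2 on the log2 scale), and 1 of 6157 others. There, all groups had the same means apart from these 200 genes, with changes of random sign and independent noise. In the real comparison 425 genes were called up and 449 down, so the simulated rates need not hold for it. Isozyme ratios were tested by exact permutation.

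The 10 members are all named. Beyond them, the rule named the 3 genes most correlated with each of 5 members and the genes of 4 lists by function. Members and lists were chosen with earlier results of these data known. The comparisons of the K655/657Q effect at 15 and 30 min with that in YPD, the bases 301 to 600 before the start codon and a crossed replicate block were added after the data had been seen. Other scalings (TPM as deposited, upper quartile, ACT1), pseudocounts, filters, a replicate block, all 24 libraries and leaving out single libraries were tried.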

Additional observations from a re-analysis of the deposited data

Results flagged for a closer look

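The effect of K655/657Q relative to WT differed between conditions, by a direct test of the difference (limma, Benjamini-Hochberg over all genes), for most of the 10 genes. The difference between raffinose and YPD was 0.76 for TPI1, 2.57 for TDH1, 0.90 for TDH2, 0.61 for PGK1, 0.96 for GPM1, 1.46 for ENO1 and 0.87 for PYK2 on the log2 scale. The difference between 30 min and raffinose was 1.26 for TDH1, 0.61 for TDH2, 0.60 for PGK1 and 1.13 for ENO1. With single libraries left out, 1 to 4 members were called in that test. The comparisons of 15 and 30 min with YPD, which follow, were added after the values had been seen. The difference between 15 min and YPD was 0.68 for TPI1, 3.39 for TDH1, 1.24 for TDH2, 0.68 for TDH3, 0.92 for PGK1, 1.21 for GPM1, 1.87 for ENO1 and 1.14 for PYK2. Between 30 min and YPD it was 0.85 for TPI1, 3.83 for TDH1, 1.52 for TDH2, 0.73 for TDH3, 1.21 for PGK1, 1.28 for GPM1, 2.59 for ENO1, 0.62 for ENO2 and 0.80 for PYK2. All of these are positive, and those against YPD share the 4 YPD libraries of both strains, in which ribosomal protein genes held 29.8% and 30.5% of TPM in K655/657Q and 28.0% and 29.2% in WT. At 30 min that share was 30.98% in each K655/657Q library and 35.4% and 36.7% in WT. Its part in the differences was not tested. Groups of 2 libraries were too small for a test of single outlying libraries.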

How the results depend on the processing

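The number of members called depended on the scaling. With ACT1 as the reference it was 5 in raffinose against YPD in WT, 3 in K655/657Q against WT in YPD, 3 at 30 min against YPD in K655/657Q, 2 for the change of the K655/657Q effect between YPD and raffinose, and 5 each for its change between YPD and 15 or 30 min, and the value of CDC19 at 30 min against YPD in WT turned to 0.0497, uncalled. With TPM as deposited 4 members were called in K655/657Q against WT in YPD, and with upper-quartile scaling 3 at 30 min against YPD in K655/657Q. Without the fold change threshold, 6 members in K655/657Q, 8 in K655/657R and 9 in WT were called at 15 min against raffinose, 5 in K655/657Q and 7 in WT at 30 min against 15 min, 10 at 30 min against YPD in K655/657Q, and in K655/657Q against WT 1 in raffinose, 4 at 15 min and 5 at 30 min. In K655/657Q against WT at 15 min, a pseudocount of 0.1 gave 2 members, all 24 libraries gave 0, and leaving out single libraries gave 0 to 2. For the 30 min response of K655/657Q against WT, all 24 libraries gave 1 and leaving out single libraries 1 to 4. For the 15 min response, a fit of only the groups compared gave 1. Of 1240 single-gene values with a library left out, 1201 stayed called or uncalled as before, 23 lost their call and 16 gained one. None with a call in either fit changed sign, whereas 75 that were uncalled in both fits did.

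Replicate numbers did not pair the libraries in the same way throughout. Over 19 pairs of groups the deviations of 4365 genes correlated between -0.35 and 0.31, with 8 pairs above 0.1 and 5 below -0.1. In WT, raffinose and 30 min each correlated with YPD at 0.31, so some groups may be paired. A replicate block raised the 15 min response of K655/657Q to 1 member. As a block for the ratios it left the differences at -0.63 and -3.47 for TDH1 to TDH3 (15 and 30 min), 0.52 and -0.27 for TDH2 to TDH3 (15 min, K655/657Q), 0.84, -2.49 and -3.93 for ENO1 to ENO2 (raffinose, 15 and 30 min) and 1.09, -3.34, -3.35 and 0.31 for PYK2 to CDC19 (raffinose, 15 min, 30 min, K655/657Q), but none of these then passed (adjusted p = 0.089 to 0.114, from unadjusted p of 0.0234 to 0.0625). The smallest unadjusted p that this block allows is 0.03125 with the 6 pairs of raffinose or 15 min and 0.0625 with the 5 pairs of 30 min. Each lost test between conditions stood at that limit, and those at 30 min could not have passed, so these losses say nothing about stability. Between K655/657Q and WT 8 pairs allow 0.0078. A crossed block in the 5 comparisons with a correlation below -0.1 left the counts of members called as they were. With single libraries left out, some of these tests missed or gained the threshold within -0.75 to -0.52 and -3.75 to -3.52 for TDH1 to TDH3 (15 and 30 min), -0.28 to -0.24 and -0.29 to -0.26 for TDH2 to TDH3 (raffinose, K655/657Q), -4.06 to -3.99 for ENO1 to ENO2 (30 min) and -3.45 to -3.39 for PYK2 to CDC19 (30 min).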
